A study of Mus musculus with 8 samples.

Results

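Peaks of accessible chromatin were examined at 10 genes of type 1 lymphocytes in sorted mouse retinal ganglion cells (RGCs): *Il12rb2*, *Il12rb1*, *Il18r1*, *Il18rap*, *Il2rb*, *Stat4*, *Tbx21*, *Ifng*, *Ctla2a* and *Ctla2b*. They were 10 of 21883 protein-coding genes of the annotation, and a peak was counted for a gene when it overlapped the gene or the 20 kb on either side. The genes were chosen by the presence of their peaks in Ezh2-Y726D against GFP in these same lists, so that comparison is given below as a description, with no test. All mice were C57BL/6J, and the study used adults of both sexes. AAV2 carrying GFP, Ezh2 or Ezh2-Y726D, a catalytically dead form of this histone methyltransferase, was injected into the vitreous body, the optic nerve was crushed 2 weeks later, and cells were sorted 3 days after the crush. There were 3 GFP, 3 Ezh2 and 2 Ezh2-Y726D samples, each of 50000 cells, assayed by ATAC-seq, in which a transposase cuts open DNA. No group was left without virus or without crush. The sort took living cells with CD90.2 on their surface. This is the Thy1.2 antigen, which mouse RGCs carry and mouse T cells carry as well.

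Interleukin-12 (IL-12), made by dendritic cells and macrophages, binds a receptor of the chains Il12rb1 and Il12rb2 on T cells and natural killer (NK) cells, and activates the transcription factor Stat4. Stat4 and T-bet, the product of *Tbx21*, open and transcribe *Ifng*, which encodes interferon gamma, and T-bet also keeps *Il12rb2* expressed. IL-18, read through Il18r1 and Il18rap, acts together with IL-12, whereas Il2rb is a receptor chain for IL-2 and IL-15. *Ctla2a* and *Ctla2b* encode small proteins that resemble the propeptide of cathepsins and inhibit cysteine proteases, and they were first found in activated T cells. None of these genes is a usual marker of RGCs.

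The promoters at which peaks were present or missing are shown first. RefSeq starts in GRCm38.p6 were matched for 8 of the 10 genes, and not for *Il12rb1* or *Il2rb*. The 250 bases before the start are given 5′ to 3′ on the strand of the gene for 5 genes whose start carried a peak in all 6 GFP and Ezh2 lists but in neither Ezh2-Y726D list, and for *Tbx21*, whose start carried a peak in all 8 lists. Capitals mark matches, on either strand, to AP-1 (TGACTCA), ETS (GGAAGT) or STAT (TTCNNNGAA) letters.
Il12rb2, chr6:67376189-67376438, minus strand: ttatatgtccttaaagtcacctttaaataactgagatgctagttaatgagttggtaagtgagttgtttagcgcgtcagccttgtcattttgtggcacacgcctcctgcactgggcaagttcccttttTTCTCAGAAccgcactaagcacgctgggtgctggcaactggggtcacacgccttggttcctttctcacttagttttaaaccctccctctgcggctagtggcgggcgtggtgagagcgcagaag
Il18rap, chr1:40515112-40515361, plus strand: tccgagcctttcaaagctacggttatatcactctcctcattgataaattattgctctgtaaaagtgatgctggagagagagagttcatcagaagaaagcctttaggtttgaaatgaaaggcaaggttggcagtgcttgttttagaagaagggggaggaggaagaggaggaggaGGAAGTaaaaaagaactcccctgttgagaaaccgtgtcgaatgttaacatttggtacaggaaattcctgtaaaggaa
Ifng, chr10:118440796-118441045, plus strand: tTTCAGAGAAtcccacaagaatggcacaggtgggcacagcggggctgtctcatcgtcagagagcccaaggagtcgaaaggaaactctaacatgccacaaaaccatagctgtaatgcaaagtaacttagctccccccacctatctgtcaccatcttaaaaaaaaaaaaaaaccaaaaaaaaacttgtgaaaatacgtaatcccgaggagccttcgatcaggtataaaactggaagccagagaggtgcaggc
Ctla2a, chr13:60936626-60936875, minus strand: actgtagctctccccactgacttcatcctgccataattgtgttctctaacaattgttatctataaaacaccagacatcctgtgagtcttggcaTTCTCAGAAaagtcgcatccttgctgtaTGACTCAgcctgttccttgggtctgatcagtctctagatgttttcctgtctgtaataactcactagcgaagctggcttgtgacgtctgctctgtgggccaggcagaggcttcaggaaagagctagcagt
Ctla2b, chr13:60897448-60897697, minus strand: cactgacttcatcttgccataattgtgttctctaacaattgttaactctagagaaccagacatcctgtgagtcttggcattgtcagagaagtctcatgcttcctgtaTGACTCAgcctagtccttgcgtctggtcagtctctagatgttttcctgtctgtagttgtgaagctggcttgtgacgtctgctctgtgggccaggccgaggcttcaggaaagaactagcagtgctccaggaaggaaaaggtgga
Tbx21, chr11:97115332-97115581, minus strand: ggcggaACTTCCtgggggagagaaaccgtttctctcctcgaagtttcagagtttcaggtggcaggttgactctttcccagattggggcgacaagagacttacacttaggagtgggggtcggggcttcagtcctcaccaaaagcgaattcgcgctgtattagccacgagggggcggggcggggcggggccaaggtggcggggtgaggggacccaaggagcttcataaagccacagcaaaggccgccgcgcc

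*Ctla2a* and *Ctla2b* both held the AP-1 letters, which 5.20% of all 32851 promoters of this length (250 bases before and 50 after the start) hold. The STAT letters were in the promoters of *Il12rb2*, *Ifng*, *Ctla2a* and one start of *Il18r1*, 4 of the 8 genes. By promoter, this was 5 of the 12 of these genes, beside 8.30% of all promoters. Some of the 12 overlap, since a gene can have nearby starts. The ETS letters, the commonest, were in 5 of the 8 genes and in 6 of the 12 promoters, beside 23.8% of all promoters. RUNX letters (AACCACA) lay just behind a start of *Il18r1* and that of *Il18rap* (5.27% of all promoters), and the T-box letters TCACACC were in 0 of the 8 genes (3.98% of all promoters). These matches describe letters, not bound factors. The promoters of *Ctla2a* and *Ctla2b* are near-identical copies, with 256 of 278 aligned bases the same (92.1%). Reads of the pair could therefore be placed on the wrong copy, and their separate counts are uncertain.

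Across the series, the lists held 112939 to 135895 peaks. Sequencing depth is unknown, and the background pileup, a relative index of depth, ran from 2.39 reads in Ezh2-Y726D replicate 1 to 3.74 reads in GFP replicate 3. Peaks near 19 or 20 of 20 RGC marker genes were found in every list, so accessible chromatin was present at the markers of the labelled cell type. The labels gave no batch and did not say whether replicates came from separate animals, so p-values measure the spread between these samples only.

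The 10 genes had most peaks after Ezh2, fewer after GFP and fewest after Ezh2-Y726D. GFP replicates 1, 2 and 3 held 71, 72 and 81 peaks, the Ezh2 replicates 93, 94 and 101, and the Ezh2-Y726D replicates 46 and 47. The 3 groups did not overlap, with means of 74.7 ± 5.51 (SD, n = 3), 96.0 ± 4.36 (SD, n = 3) and 46.5 ± 0.707 peaks (SD, n = 2). As a share of all peaks in the list, they made up 0.0606% to 0.0638% in GFP, 0.0737% to 0.0743% in Ezh2 and 0.0365% to 0.0369% in Ezh2-Y726D. Every GFP and Ezh2 list had a peak within 1 kb of all 10 genes, whereas the Ezh2-Y726D lists had one at 6 and 8 of them. No matching share over all genes is given for this count. In bulk samples, fewer cells of a type and less accessible DNA per cell cannot be told apart.

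Peaks per gene in Ezh2-Y726D lay below every GFP sample for 7 of the 10 genes, beside 12.6% of all protein-coding genes in the contrast that chose the list. *Il18rap*, *Tbx21* and *Ctla2a* overlapped with GFP, and 0 of the 10 lay above GFP, beside 8.08%. Peaks per gene in Ezh2 lay above every GFP sample for *Il12rb2*, *Il18rap*, *Stat4* and *Ifng*, 4 of 10 against 8.41% of all protein-coding genes, and below every GFP sample for 0 of 10, against 2.29%. For each of the 4, the two-sided exact permutation p was 0.1, the smallest that 3 against 3 samples allow, and the value adjusted over all genes was 1. Ezh2 lay above both Ezh2-Y726D samples for 8 of the 10 genes, beside 21.8% of all protein-coding genes. That comparison shares its Ezh2-Y726D samples with the contrast that chose the genes, so nothing is read from it.

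**Figure D1:**
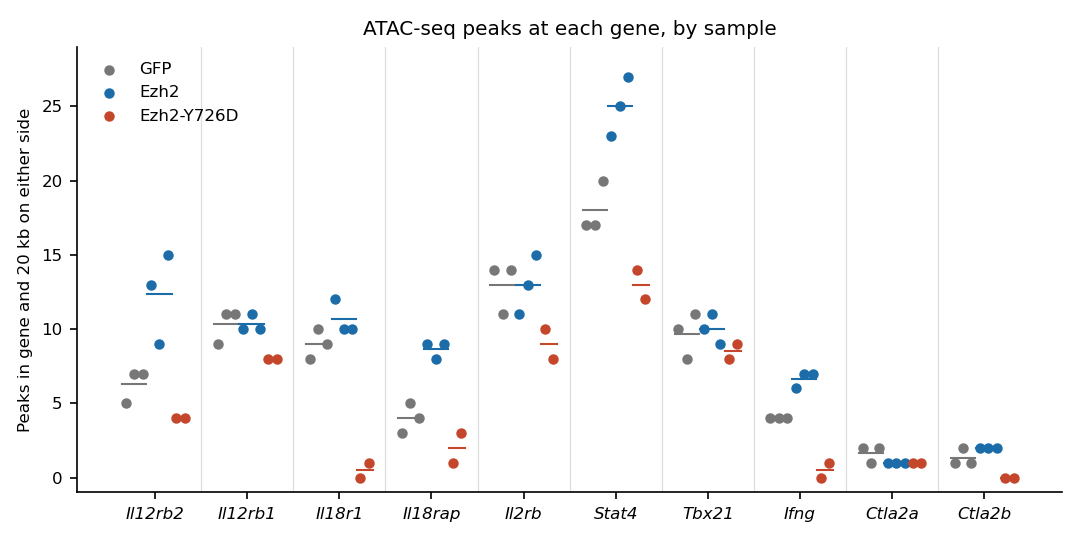
Number of ATAC-seq peaks (y axis) in each gene and the 20 kb on either side (x axis). Points are the 8 samples, coloured by group, and bars are group means; *Il18r1* and *Ifng* held 0 or 1 peak in the Ezh2-Y726D samples, and *Stat4* held the most peaks, 23 to 27 in the Ezh2 samples.

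Peaks of all lists that shared bases were merged into regions, of which 114 lay in the windows of the 10 genes and 189914 in the genome. Every GFP list but neither Ezh2-Y726D list had a peak in 25 of the 55 regions with a peak in every GFP list, beside 9.72% of such regions genome-wide. All 25 were also called in each Ezh2 list, which was so for 25 of 51 regions common to the 6 GFP and Ezh2 lists, beside 8.54%. The reverse, a peak in both Ezh2-Y726D lists and in no GFP list, was seen in 1 of 25 regions, inside *Il2rb*, beside 18.9%. Between Ezh2 and GFP, 9 of the 25 regions without a GFP peak were called in each Ezh2 list, beside 10.8%, and 1 of the 55, at the far edge of the *Il2rb* window, was in each GFP list but in no Ezh2 list, beside 3.45%. At the starts themselves, 7 genes had a peak on the start in every GFP list, and 6 of them had none there in either Ezh2-Y726D list, beside 2.17% of 11033 protein-coding genes. The classes of Ezh2-Y726D against GFP come from the comparison that chose the genes, and nothing is read from them. Those of Ezh2 against GFP are counts without a test.

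**Figure D2:**
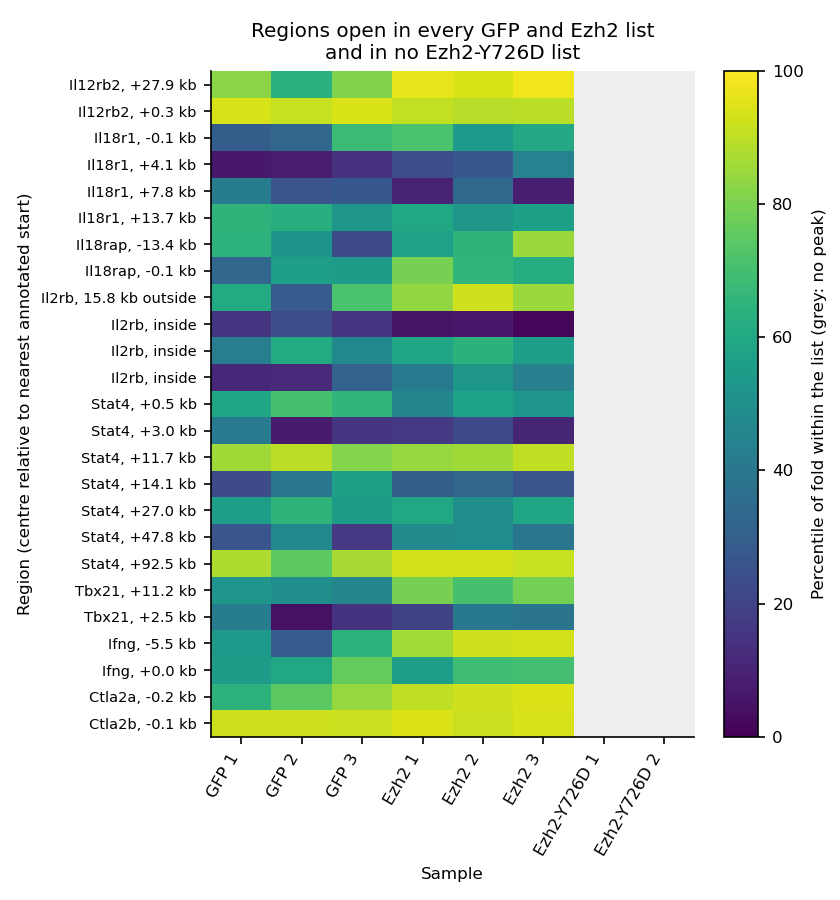
Within-list percentile of fold (colour, 0 to 100) of the 25 regions with a peak in all 6 GFP and Ezh2 lists but in neither Ezh2-Y726D list. Rows are regions, named by gene and by the distance of their centre from the nearest annotated start (for *Il2rb*, inside or outside the gene), columns are the 8 samples, and grey marks no peak; the starts of *Il12rb2* and *Ctla2b* were above the 89th percentile in all 6 GFP and Ezh2 lists.

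*Il12rb2* encodes the inducible, signalling chain of the IL-12 receptor and lies on chromosome 6 from 67285986 to 67376293. Its window held 5, 7 and 7 peaks in the GFP samples, 13, 9 and 15 in the Ezh2 samples and 4 and 4 in the Ezh2-Y726D samples. All Ezh2 samples were above all GFP samples, and both Ezh2-Y726D samples were below them. The means were 6.33 ± 1.15 (SD, n = 3), 12.3 ± 3.06 (SD, n = 3) and 4 ± 0 (SD, n = 2).

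The start of *Il12rb2* lies in the region from 67375282 to 67376497, which takes in the sequence shown above. The fold of its peak over the local background was 10.1, 10.1 and 10.3 in the GFP replicates and 9.57, 8.86 and 8.61 in the Ezh2 replicates, and neither Ezh2-Y726D list had a peak. In percentiles of its own list, the peak stood at 91.4 to 94.2 in GFP and 89.1 to 91.0 in Ezh2. Every Ezh2 sample was thus slightly below every GFP sample. Among all regions with a peak in every GFP list and a mean GFP percentile above 75, 1.31% had no Ezh2-Y726D peak, and the 10 windows held 15 such regions, of which 5 had none.

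A second region lay 27.9 kb into *Il12rb2*, from 67347848 to 67348735. Its fold was 7.54, 5.97 and 7.39 in GFP and 11.7, 10.5 and 11.7 in Ezh2, and no peak was called in Ezh2-Y726D. The Ezh2 samples were all above the GFP samples, at percentiles of 94.4 to 97.7 against 63.5 to 82.5. Since Ezh2 against GFP did not choose the genes, this difference was tested by limma on rank scores over the 6 GFP and Ezh2 lists. The region was higher in Ezh2 by 1.17 ± 0.22 score units (SE, adjusted p = 0.0236). It stayed past the threshold in 6 of 10 alternatives to that fit, and not without GFP replicate 2 or 3 or Ezh2 replicate 1 or 3, where adjusted p lay between 0.0644 and 0.0725.

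Weaker regions of *Il12rb2* were also higher with Ezh2. A region 8.9 kb into the gene had no peak in GFP replicate 1, folds of 3.26 and 4.43 in the other GFP replicates and folds of 7.33, 7.39 and 7.85 in Ezh2. Another, 36.5 kb in, had a fold of 3.80 in GFP replicate 3 alone and of 7.08, 6.23 and 5.45 in Ezh2. Neither was called in Ezh2-Y726D.

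By contrast, a region 57.5 kb into *Il12rb2* (67318334 to 67318973) had a peak in all 8 lists. Its fold was 7.54, 8.41 and 6.54 in GFP, 7.57, 7.39 and 6.54 with Ezh2, and 7.08 and 9.22 with Ezh2-Y726D, so the groups overlapped. The region with the highest mean percentile over the 8 lists, 18.0 kb outside *Il12rb2* at the start of the neighbouring *Serbp1*, an RNA-binding protein gene, likewise had folds of 8.24 to 9.88 in GFP and of 10.4 and 9.55 in Ezh2-Y726D. In the limma fit of all 8 lists, it did not pass the threshold for Ezh2 against GFP (-0.16 ± 0.18 score units, SE, adjusted p = 0.679).

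**Figure D3:**
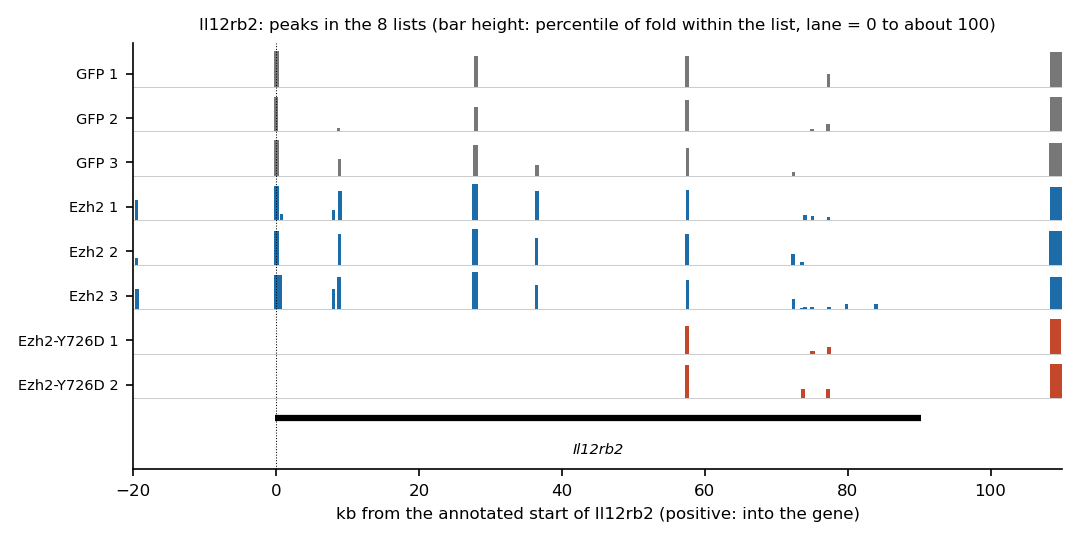
Peaks in the 8 lists (one lane per sample) against distance from the annotated start of *Il12rb2* in kb, positive into the gene. Bar height is the percentile of the peak's fold within its list, and the black bar is the gene; the peaks at the start and 27.9 kb in are missing from both Ezh2-Y726D lanes, whereas those 57.5 kb in and beyond the far end are in every lane.

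The window of the partner chain *Il12rb1* (chromosome 8, gene from 70808360 to 70823542) kept most of its regions in every list. It held 9, 11 and 11 peaks in GFP, 10, 11 and 10 with Ezh2, and 8 and 8 with Ezh2-Y726D, just below the lowest GFP sample. Of the 10 regions of this window, 8 had a peak in all 8 lists, against 22 of the 114 regions of all windows and 36.6% of regions genome-wide. Of these 8, only those from 70816628 to 70817352 and from 70821404 to 70822207 lay inside *Il12rb1*. Those between 70791248 and 70805384 overlapped the neighbouring gene *Mast3*. No region was in every GFP list and missing from Ezh2-Y726D. Inside the gene, the region from 70821404 to 70822207 had folds of 7.44, 6.85 and 6.93 in GFP, 7.28, 7.39 and 7.95 with Ezh2, and 7.24 and 7.25 with Ezh2-Y726D. The strongest region of its window was 15.3 kb outside the gene, at the start of the neighbour *Arrdc2*, and did not pass the threshold for Ezh2 against GFP (limma, -0.13 ± 0.16 score units, SE, adjusted p = 0.728).

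The IL-18 receptor genes lie 14507 bp apart on chromosome 1, *Il18r1* from 40465552 to 40500854 and *Il18rap* from 40515362 to 40551707, so their windows share 25493 bp and some of the same peaks. *Il18r1*, the ligand-binding chain, had 8, 10 and 9 peaks in GFP, 12, 10 and 10 with Ezh2, and 0 and 1 with Ezh2-Y726D. Among the 10 genes this was the largest fall in mean, from 9 ± 1 (SD, n = 3) to 0.5 ± 0.707 peaks (SD, n = 2). The groups GFP and Ezh2 overlapped (exact permutation p = 0.3, two-sided). Of its 12 regions, 6 were in every GFP list and in no Ezh2-Y726D list.

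The start region of *Il18r1* had folds of 3.86, 4.29 and 6.01 in GFP and of 6.55, 5.00 and 5.19 in Ezh2. It was absent from both Ezh2-Y726D lists. The single *Il18r1* peak of Ezh2-Y726D replicate 2 lay 9.9 kb into the gene, with a fold of 3.88 where GFP had 4.70, 5.36 and 5.23 and Ezh2 had 5.69, 5.91 and 6.35.

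*Il18rap*, the accessory chain, had 3, 5 and 4 peaks in GFP, 9, 8 and 9 with Ezh2, and 1 and 3 with Ezh2-Y726D. Ezh2 lay above GFP in every sample, and GFP and Ezh2-Y726D met at 3 peaks. At its start, the fold was 4.00, 5.43 and 5.07 in GFP and 7.43, 5.78 and 5.24 in Ezh2, and no Ezh2-Y726D peak was called. This difference between Ezh2 and GFP did not pass the threshold (limma over 6 lists, 0.59 ± 0.25 score units, SE, adjusted p = 0.230).

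Inside *Il18rap*, 2 regions were called in the 3 Ezh2 lists alone. The one 7.5 kb in had folds of 6.35, 5.08 and 4.58 in Ezh2, and the one 27.6 kb in had folds of 5.04, 5.53 and 4.90. The 10 windows held 8 such regions among the 25 with no GFP peak, beside 7.86% of such regions genome-wide. A further region 15.6 kb in went the other way, with folds of 4.24 and 6.54 in GFP replicates 1 and 3, 3.92 to 4.40 with Ezh2, and 6.49 and 8.0 with Ezh2-Y726D. It was not called in GFP replicate 2.

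**Figure D4:**
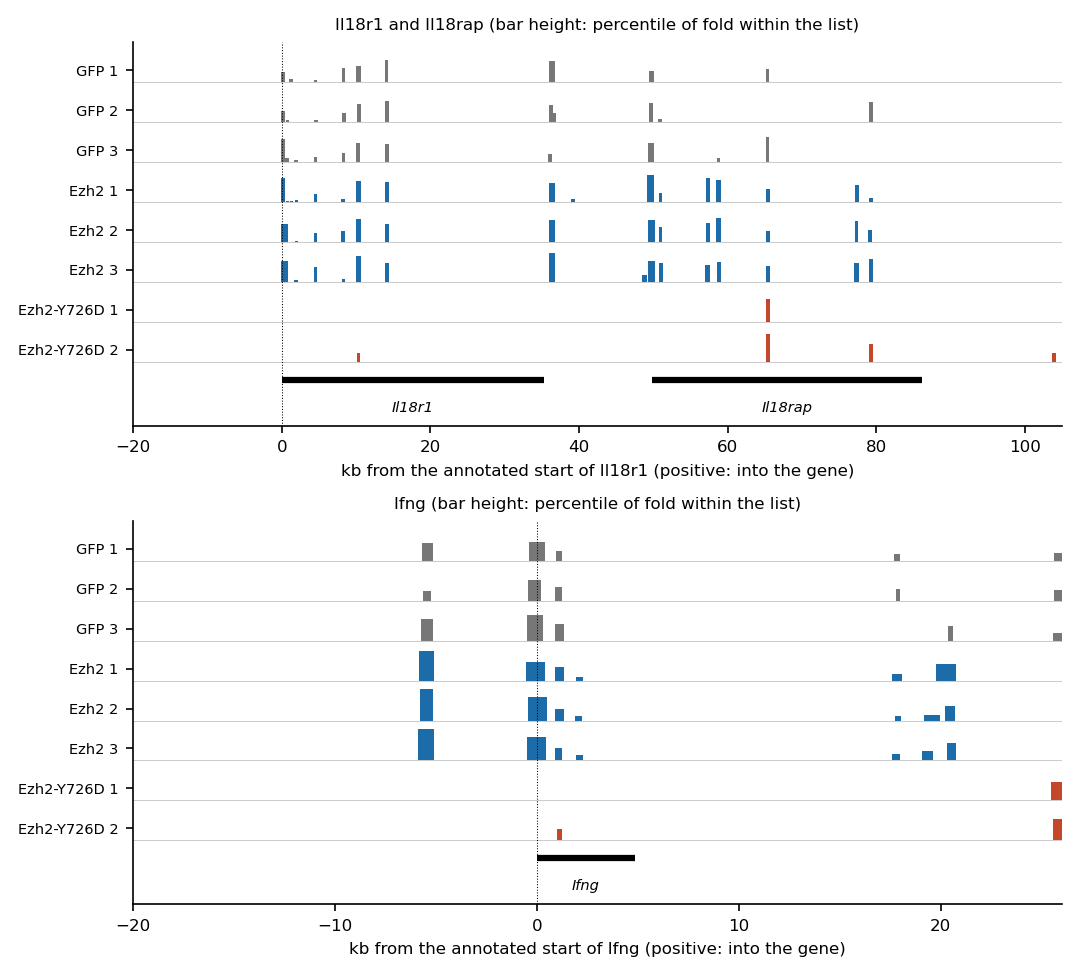
Peaks in the 8 lists (one lane per sample) against distance in kb from the annotated start of *Il18r1* (upper panel, with *Il18rap*) and of *Ifng* (lower panel), positive into the gene. Bar height is the percentile of the peak's fold within its list, and black bars are genes; the Ezh2-Y726D lanes hold 1 peak in *Il18r1* and 1 in *Ifng*, and the *Ifng* peak 5.5 kb before the start is taller in each Ezh2 lane than in any GFP lane.

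*Ifng*, the output gene of the pathway, lies on chromosome 10 from 118441046 to 118445894. It held 4, 4 and 4 peaks in GFP, 6, 7 and 7 with Ezh2, and 0 and 1 with Ezh2-Y726D, with no overlap between any pair of groups. The start region had folds of 5.02, 5.70 and 6.76 in GFP and of 5.32, 6.06 and 5.89 in Ezh2, and none in Ezh2-Y726D. GFP and Ezh2 overlapped there (limma over 6 lists, -0.05 ± 0.21 score units, SE, adjusted p = 0.934).

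Regions called in more Ezh2 lists than GFP lists lay inside and beyond the gene. A region 2.1 kb into *Ifng* was called in the 3 Ezh2 lists alone, with folds of 3.18, 3.28 and 3.20, and another 14.2 kb outside the gene had folds of 4.85, 4.41 and 4.67 with Ezh2 and 4.43 in GFP replicate 3 alone. A further one, 12.7 kb outside, was missing from GFP replicate 3 alone of the GFP and Ezh2 lists.

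Upstream of *Ifng*, where T cells and NK cells are known to use distal enhancers, the level of a shared peak differed. The region 5.5 kb before the start (118435166 to 118435963) had folds of 4.94, 4.07 and 5.70 in GFP and of 8.52, 9.79 and 9.59 in Ezh2, and was not called in Ezh2-Y726D. Its percentile was 28.7 to 64.5 in GFP and 86.2 to 93.4 in Ezh2. It was higher in Ezh2 by 1.55 ± 0.25 score units (SE, limma over the 6 lists, adjusted p = 0.0153), and this call held in all 9 alternatives that could be fitted, with adjusted p between 0.0123 and 0.0495. The only *Ifng* peak of Ezh2-Y726D lay 1.1 kb into the gene in replicate 2, with a fold of 4.12 against 3.90 to 4.82 in GFP and 3.93 to 4.46 in Ezh2.

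*Stat4*, the signal transducer of the IL-12 receptor, lies on chromosome 1 from 51987106 to 52107189 and has the longest window. It held 17, 17 and 20 peaks in GFP, 23, 25 and 27 with Ezh2, and 14 and 12 with Ezh2-Y726D, and the groups did not overlap. Of its 32 regions, 7 were in all 6 GFP and Ezh2 lists but in neither Ezh2-Y726D list, and 3 were in every Ezh2 list alone. Some regions went the other way, such as one 36.8 kb past the second start, with folds of 8.86 and 6.79 in Ezh2-Y726D, 3.11 and 4.85 in GFP replicates 1 and 3, and no peak with Ezh2. Another, 7.9 kb outside the gene, had folds of 7.08 and 5.09 in Ezh2-Y726D, 3.53 and 2.95 in GFP replicates 2 and 3, and 3.46 to 5.37 with Ezh2. One more, 19.8 kb outside, had 5.91 and 7.14 in Ezh2-Y726D, 4.01 in GFP replicate 3 alone, and 3.66 to 4.80 with Ezh2. The merged region over its second start (52008152 to 52009261) had folds of 5.23, 6.6 and 5.79 in GFP and of 4.68, 5.30 and 4.66 in Ezh2, with none in Ezh2-Y726D. A region 11.7 kb past that start was stronger, with folds of 8.04, 9.57 and 7.47 in GFP and of 8.24, 8.20 and 8.77 in Ezh2, and was not called in Ezh2-Y726D either.

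Near the end of *Stat4*, a region 92.5 kb past the second start had folds of 8.45, 7.05 and 8.37 in GFP and 10.4, 10.2 and 9.03 in Ezh2. Every Ezh2 sample was above every GFP sample, but the difference did not pass the threshold (limma over 6 lists, 0.50 ± 0.19 score units, SE, adjusted p = 0.181), and Ezh2-Y726D had no peak. In a region seen in Ezh2 alone, 68.4 kb past that start, the folds were 7.82, 5.77 and 5.67. The strongest region of the window, 5.9 kb beyond *Stat4*, was in all 8 lists at percentiles of 93.1 to 94.8 in GFP, 89.5 to 94.6 in Ezh2 and 93.9 to 95.0 in Ezh2-Y726D (limma for Ezh2 against GFP, -0.16 ± 0.17 score units, SE, adjusted p = 0.667).

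*Tbx21* (chromosome 11, 97098007 to 97115331), the gene of the T-bet factor, was the exception among the starts. It held 10, 8 and 11 peaks in GFP, 10, 11 and 9 with Ezh2, and 8 and 9 with Ezh2-Y726D, and the groups overlapped. The peak on its start was in all 8 lists, with folds of 3.63, 3.86 and 4.27 in GFP, 4.10, 3.80 and 3.70 with Ezh2, and 5.31 and 5.50 with Ezh2-Y726D. At this start the Ezh2-Y726D samples were thus above all others, opposite to the other starts. Ezh2 and GFP did not differ past the threshold (limma over 8 lists, -0.01 ± 0.16 score units, SE, adjusted p = 0.985).

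Inside *Tbx21*, 11.2 kb from the start, the region from 97103750 to 97104558 had folds of 4.89, 5.05 and 4.50 in GFP and 7.48, 6.25 and 6.81 in Ezh2, and no Ezh2-Y726D peak. It was higher in Ezh2 by 0.84 ± 0.19 score units (SE, limma over the 6 lists, adjusted p = 0.0402), but this call did not hold when any of the 6 samples was left out, with adjusted p between 0.0587 and 0.115. A region 13.3 kb from the start, the strongest inside the gene over all lists, had folds of 7.02, 5.38 and 5.87 in GFP, 5.76, 5.34 and 4.43 with Ezh2, and 6.79 and 7.03 with Ezh2-Y726D.

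*Il2rb*, the shared beta chain of the IL-2 and IL-15 receptors, lies on chromosome 15 from 78479256 to 78511621. It held 14, 11 and 14 peaks in GFP, 11, 13 and 15 with Ezh2, and 10 and 8 with Ezh2-Y726D. Its 18 regions were mixed, with 4 in all 6 GFP and Ezh2 lists but in neither Ezh2-Y726D list and 1 in both Ezh2-Y726D lists and in no GFP list. That last region, 78483357 to 78483777, had folds of 5.61 and 4.37. The strongest region of the window, inside the gene from 78493207 to 78494614, had folds of 8.33, 7.07 and 6.65 in GFP, 6.87, 6.38 and 6.90 with Ezh2, and 10.3 and 9.90 with Ezh2-Y726D, the last both above every other sample.

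*Il2rb* also held the only region of the 10 windows called in the limma fit of all 8 lists. This region, 78514438 to 78515368, lies 2.8 kb outside the gene, with folds of 5.26, 5.12 and 4.45 in GFP, 3.55, 3.27 and 3.69 with Ezh2, and 6.69 and 7.05 with Ezh2-Y726D. Ezh2 was below GFP by -0.93 ± 0.20 score units (SE, adjusted p = 0.0309). The call held in 7 of 15 alternatives. It was lost without GFP replicate 1 or 2 or without Ezh2 replicate 1, 2 or 3 (adjusted p between 0.0537 and 0.0872), and when peaks were ranked by −log10 p (adjusted p = 0.143). A replicate block, by the numbers of the titles or of the peak names, also ended the call. The opposite direction, not past the threshold, was seen 15.8 kb outside *Il2rb*, inside the neighbouring gene *Tmprss6*. Folds there were 5.42, 4.07 and 6.33 in GFP and 8.06, 9.92 and 7.63 in Ezh2 (limma over 6 lists, 1.17 ± 0.30 score units, SE, adjusted p = 0.0622).

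*Ctla2a* and *Ctla2b* lie 36220 bp apart on chromosome 13, at 60934155 to 60936625 and 60895351 to 60897934. *Ctla2a* held 2, 1 and 2 peaks in GFP, 1, 1 and 1 with Ezh2, and 1 and 1 with Ezh2-Y726D, and *Ctla2b* held 1, 2 and 1 in GFP, 2, 2 and 2 with Ezh2, and 0 and 0 with Ezh2-Y726D. The count hides a difference in place, since the *Ctla2a* peak of both Ezh2-Y726D samples lay 1.3 kb past the far end of the gene, with folds of 4.72 and 6.31. In GFP replicates 1 and 3 that region had folds of 4.71 and 3.82, and no Ezh2 list held it.

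At the start of *Ctla2b* the fold was 9.65, 10.4 and 9.57 in GFP and 10.8, 9.58 and 9.81 in Ezh2, above the 91st percentile of every one of these lists, and no Ezh2-Y726D peak was called. At the start of *Ctla2a* it was 5.65, 7.05 and 7.86 in GFP and 9.45, 9.83 and 10.0 in Ezh2, again with none in Ezh2-Y726D. The Ezh2 samples were all above the GFP samples at *Ctla2a*, but the difference did not pass the threshold (limma over 6 lists, 0.84 ± 0.21 score units, SE, adjusted p = 0.0524). At *Ctla2b* the groups overlapped (0.06 ± 0.16 score units, SE, limma adjusted p = 0.889). Because the copies are alike, the split of reads between both starts is uncertain.

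Over the 10 windows, limma on all 8 lists could test only the 22 regions with a peak in every list. For Ezh2 against GFP it called 0 regions higher and 1 lower, beside 1.59% and 2.84% of 69493 regions, and 4 of the 22 had an unadjusted p under 0.05. The fit of the 6 GFP and Ezh2 lists, which keeps the regions missing from Ezh2-Y726D, tested 51 regions and called 3 higher and 1 lower, beside 2.40% and 2.76% of 80295 regions. The median score difference over the 51 regions was -0.05, beside 0.00 over all regions. Among the 25 regions missing from Ezh2-Y726D, the percentile was higher in Ezh2 than in GFP in 17 and lower in 8, with a median difference of 9.75 points. Of all 6855 such regions of the genome, 5260 were higher and 1595 lower, with a median of 11.9 points. In the 22 regions of the windows with a peak in all 8 lists, the percentile was higher in Ezh2 in 6 and lower in 16. The median difference there was -1.46 points. Of all 69493 such regions of the genome, 37997 were higher and 31495 lower, with a median of 0.533 points.

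Other genes of IL-12, IL-18, IL-2 and interferon gamma signalling were counted from a list of 36. In the 6 GFP and Ezh2 lists, all 36 had a peak within 1 kb, and 34 had one in each Ezh2-Y726D list. This count has no matching share over all genes. Ezh2-Y726D lay below GFP without overlap at 12 of the 36, beside 12.6% of all protein-coding genes, and above at 2, beside 8.08%, with a median difference of -1 peaks. Ezh2 lay above GFP at 6, beside 8.41%. The largest difference was at *Runx3*, a transcription factor of CD8 T cells and NK cells, with 11, 10 and 13 peaks in GFP, 14, 16 and 16 with Ezh2, and 4 and 3 with Ezh2-Y726D. *Il2ra*, the alpha chain of the IL-2 receptor, had 6, 6 and 9 peaks in GFP, 11, 13 and 14 with Ezh2, and 4 and 2 with Ezh2-Y726D.

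*Irf8*, a factor of myeloid cells and B cells, had 7, 6 and 9 peaks in GFP, 9, 6 and 9 with Ezh2, and 1 and 2 with Ezh2-Y726D. *Stat3*, used by many cytokine receptors, had 11, 10 and 12 in GFP, 11, 12 and 10 with Ezh2, and 7 and 8 with Ezh2-Y726D. *Il2ra* and *Runx3* thus also had more peaks in every Ezh2 sample than in any GFP sample, and *Irf8* and *Stat3* overlapped.

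Markers of other cells that a CD90.2 sort could hold moved with these genes. No share over all genes is given beside the marker counts within 1 kb. Of 20 T cell markers, 20 were within 1 kb of a peak in each of the 6 GFP and Ezh2 lists, and 16 in both Ezh2-Y726D lists. Those with none in Ezh2-Y726D were *Cd3g*, a chain of the T cell receptor complex, *Cd8a* and *Cd8b1*, the chains of the CD8 coreceptor, and *Lat*, an adaptor of that receptor. The 20 markers summed to 141 to 174 peaks in GFP, 199 to 209 in Ezh2 and 109 to 112 in Ezh2-Y726D. In Ezh2-Y726D, 13 of the 20 were below GFP without overlap, beside 12.6% of all protein-coding genes, and 1 was above, beside 8.08%. That one, *Themis*, had 4, 4 and 2 peaks in GFP, 11, 10 and 13 with Ezh2, and 7 and 5 with Ezh2-Y726D.

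Of 10 NK cell markers, 4 to 7 had a peak within 1 kb in GFP, 8 or 9 in Ezh2, and 1 or 2 in Ezh2-Y726D. Their summed peaks were 34 to 40, 53 to 59, and 20 to 21. Ezh2-Y726D lay below GFP without overlap at 6 of the 10 and above at 0, beside 12.6% and 8.08% of all protein-coding genes. *Nkg7*, *Gzmb* and *Prf1*, genes of cytotoxic granules, had a peak within 1 kb in all 6 GFP and Ezh2 lists but not with Ezh2-Y726D. Within 20 kb, the Ezh2-Y726D lists held 2 and 2 peaks for *Nkg7*, 4 and 3 for *Prf1*, and 0 and 0 for *Gzmb*. The NK receptor gene *Ncr1* had a peak in Ezh2 replicate 3 alone.

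Microglia and macrophage markers moved too, with 11 to 14 of 15 near a peak in GFP, 12 to 14 with Ezh2 and 6 in both Ezh2-Y726D lists, and 85 to 102, 106 to 110, and 55 to 60 summed peaks. At 7 of these 15, Ezh2-Y726D lay below GFP without overlap, and at 0 above, beside 12.6% and 8.08% of all protein-coding genes. B cell markers were at 6 of 10 in GFP, 5 or 6 in Ezh2 and 6 in Ezh2-Y726D, and their summed peaks, 48 to 56, 53 to 61, and 42 to 46, were also lowest with Ezh2-Y726D. Of the B cell genes, *Cd79b* and *Ms4a1* had no peak within 1 kb in any list, whereas *Cd79a*, *Pax5*, *Blk*, *Cr2* and *Cd22* had one in all 8. Endothelial markers were at 9 of 10 in GFP and at 10 in the other lists, and RGC markers summed to 109 to 126 peaks in GFP, 123 to 141 in Ezh2 and 119 to 127 in Ezh2-Y726D. Of the 20 RGC markers, Ezh2-Y726D lay below GFP without overlap at 3 and above at 3, beside 12.6% and 8.08% of all protein-coding genes. Those below were *Thy1*, *Isl1* and *Nefh*, and those above were *Rbpms2*, *Ebf1* and *Stmn2*. The window of *Thy1*, the gene of the sorting antigen, held 6, 6 and 6 peaks in GFP, 5, 5 and 6 with Ezh2, and 3 and 3 with Ezh2-Y726D. Within 1 kb of *Thy1*, each of the 8 lists had 1 peak. The part of the other cell types in the peaks of the 10 genes was not tested.

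**Figure D5:**
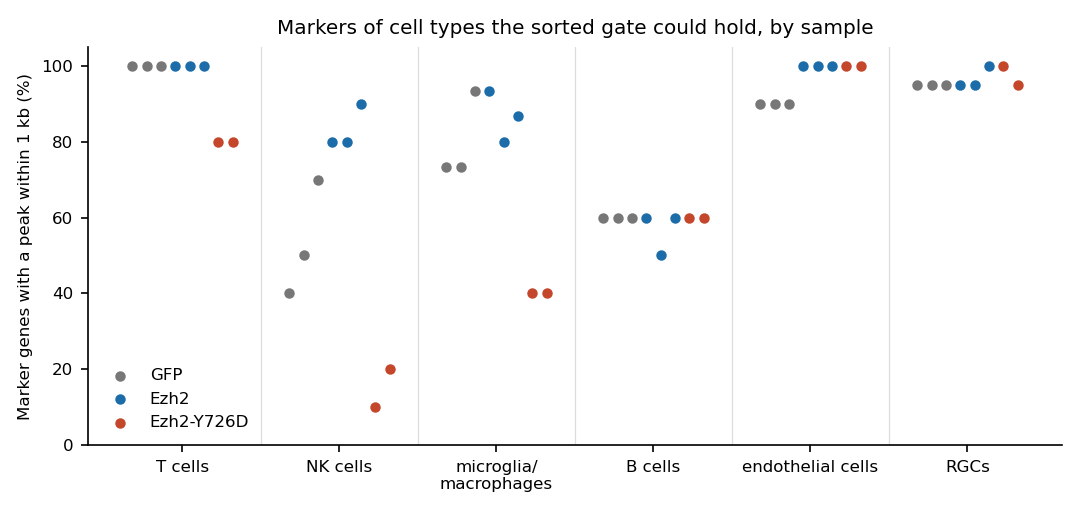
Share of marker genes of each cell type (x axis) with a peak within 1 kb of the gene, in percent (y axis). The matching share over all genes is not shown. Points are the 8 samples coloured by group; T cell, NK cell and microglia or macrophage markers are lower in both Ezh2-Y726D samples than in any GFP sample, whereas B cell, endothelial and RGC markers are not.

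The genes most like *Il12rb2* were sought by the highest percentile of a peak within 1 kb, over the 8 samples. The closest were *Anxa4*, with a mean absolute difference of 1.32 percentile points, *Chrne* and the overlapping 4930544D05Rik, each with 1.91, and 1700001C19Rik and *Nos3*, each with 2.03. This measure takes the strongest peak of a gene, which for *Il12rb2* in Ezh2-Y726D was the region 57.5 kb into it. Whether their starts carried a peak was not examined.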

How the data were processed

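ATAC-seq of sorted RGCs was measured in 8 samples, grouped by their titles. The authors called peaks per sample and deposited 1 narrowPeak list each. The submitters' processing notes name cutadapt, Bowtie2, SAMtools, Picard, MACS2 and deepTools and the build GRCm38, without a version. The deposited fold is the ratio of the summit pileup to the local background. The −log10 p and −log10 q (p-value and q-value) are from the authors' caller, whose threshold is not given in the sources used here, and the score the authors deposited was left aside. A missing peak says only that the caller found none, and depth is unknown. The background pileup, recovered from steps of 1 read in low folds, is a relative index.

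Gene positions were those of RefSeq (GRCm38.p6), and an overlap of 1 bp counted. Folds were ranked within each list as percentiles. For regions with a peak in every list of a fit, ranks were turned into normal scores, where 1 unit is 1 SD of all ranked regions, and Ezh2 and GFP were compared with limma 3.58.1 (R 4.3.3), adjusted by Benjamini-Hochberg over all regions at a threshold of 0.05. The main fit used all 8 samples. Peaks per gene were compared by an exact permutation test (two-sided) of every gene in the annotation. Scripts were checked on simulated data. The rank deviations of GFP and Ezh2 samples of the same number correlated at 0.005 to 0.048, and those of unlike numbers at -0.048 to 0.016. The main fits therefore did not pair samples by number, but values this small cannot exclude a shared preparation.

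The members and lists were chosen with earlier results of these data known, and the marker and pathway lists are no independent evidence. Named were all 10 genes, their regions present throughout one group and missing from another, the strongest region of each, up to 6 pathway genes without overlap between Ezh2-Y726D and GFP (some are not reported here), and the 5 genes most like *Il12rb2*. The other regions and marker genes named were chosen after their values were seen. Ezh2-Y726D replicates 1 and 2 carry the numbers 2 and 3 in their peak names. Alternatives were other windows, stricter or equally long lists, ranking by −log10 p, other overlaps, a replicate block and leaving out each sample. Promoters were aligned with Biopython 1.88. No genome sequence was used, so sequences under other peaks were not analysed here.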

Additional observations from a re-analysis of the deposited data

How the results depend on the processing

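Depth is unknown, and a missing peak can be a site below the caller's threshold. No group has 4 samples, so no sample was tested for standing apart. The difference in summed peaks over the 10 windows, 21.3 for Ezh2 minus GFP, was 15.7 within 5 kb, 28.7 within 50 kb and 13.7 in lists of equal length. For Ezh2-Y726D minus GFP it was -28.2, and became -37.2 within 50 kb and -21.7 at a −log10 q of at least 5. For Ezh2 minus Ezh2-Y726D it was 49.5, and became 42.2 in genes alone, 43.8 within 5 kb, 65.8 within 50 kb, 42.3 at the stricter q and 41.5 in lists of equal length. No direction turned. Leaving out 1 sample gave 18.8 to 24.5, -30.0 to -25.0 and 47.0 to 51.0 for the 3 comparisons, 7 to 9 genes of Ezh2-Y726D below GFP, and 4 to 6 genes of Ezh2 above GFP. Within 5 kb and at the stricter q, 6 genes were below GFP with Ezh2-Y726D, and in lists of equal length 3 were above GFP with Ezh2.

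The 25 regions in every GFP list and no Ezh2-Y726D list became 16 when a peak had to cover 0.5 of the region, and were 25 to 28 with a sample left out. The 9 regions in every Ezh2 list and no GFP list were 9 to 17 with a sample left out, with 17 reached without GFP replicate 3, which has the longest GFP list. In the limma fit of 8 lists, ranking by −log10 p called 1 region higher and 0 lower, and regions in at least 5 lists gave 7 higher and 3 lower. In that last setting an absent peak was ranked below all peaks of its list, so its calls mix presence with level. Using GFP and Ezh2 only gave 3 higher. Leaving out 1 sample gave 0 higher and 0 to 1 lower. Ranking by −log10 p also turned the direction of differences past no threshold, at the Tbx21 region 13.3 kb in (0.0925), the Il2rb region from 78493207 (0.284) and the Serbp1 start beside Il12rb2 (0.0027), and the Il2rb one ranged from -0.326 to 0.0125 with a sample left out, turning without GFP replicate 1.

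Whether replicate numbers pair the samples is not known. With a replicate block, by the numbers of the titles or of the peak names, limma called 0 regions lower in place of 1 and 0 higher, and the Il2rb region 2.8 kb outside the gene had an adjusted p of 0.0617 or 0.0597. In the fit of 6 lists, alternatives added after seeing the data gave 7 higher and 0 lower with ranks of −log10 p, 2 higher and 0 lower with the replicate block, and 1 to 3 higher and 0 to 1 lower with a sample left out. Only 1 region was called higher there without GFP replicate 2 or 3 or Ezh2 replicate 1 or 3. The Ifng region could not be fitted at a −log10 q of at least 5, since it then had no peak in every list. The cause of these changes was not tested.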

Other observations

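Lists for other helper programmes showed how far the pattern reached beyond type 1 genes. Ezh2-Y726D lay below GFP without overlap at 6 of 10 regulatory genes, 5 of 10 type 2 genes and 1 of 10 type 17 genes, beside 12.6% of all protein-coding genes. The regulatory list summed to 58 to 73 peaks in GFP, 85 to 94 in Ezh2, and 41 to 42 in Ezh2-Y726D. The type 2 list summed to 56 to 68, 63 to 68, and 38 to 39, and the type 17 list to 127 to 162, 163 to 186, and 140 to 147. Ezh2 lay above GFP at 4 of 10 regulatory, 1 of 10 type 2 and 1 of 10 type 17 genes, beside 8.41% of all protein-coding genes. *Tnfrsf4*, a costimulatory receptor of activated and regulatory T cells, had a peak within 1 kb in all 6 GFP and Ezh2 lists but not with Ezh2-Y726D, as did *Il23a*, a subunit of the cytokine IL-23. These lists share *Il2ra* and *Il23r* with the signalling list, and both comparisons with GFP use the same GFP samples.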
